A study of Mus musculus with 556 samples.

Results

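The vomeronasal type 1 receptor genes of the mouse (Vmn1r) were followed through single-cell maps of nuclear lamina contact in oocytes, early embryos and embryonic stem (ES) cells. The members were all 231 autosomal protein-coding genes whose symbol starts with Vmn1r in the RefSeq annotation of GRCm38.p6, the assembly behind mm10. Each gene was placed in the 100 kb bin that holds its midpoint, and each bin was used once. This gave 109 bins, of which 102 bins with 221 genes had values, among 24022 autosomal bins with values in all. The other 10 genes lay in 7 bins without a value, and 2 of them, Vmn1r186 and Vmn1r187, were annotated at the very start of chromosome 7. That placement is in doubt and was not checked, and Hbb-b1 and Hbb-b2 were placed in the same bins. These bins are counted among the 109 and as 1 of the clusters below. A Vmn1r bin held a median of 2 and at most 5 receptor genes, and 32 of the 102 bins also held the midpoint of another protein-coding gene, so a bin's value is not that of a receptor gene alone.

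V1R receptors are G protein-coupled receptors of sensory neurons in the apical layer of the vomeronasal organ, where they detect pheromones and other chemical cues from the same or other species. They couple to the G protein subunit Gnai2 and signal through the cation channel Trpc2, and a mature neuron is thought to express a single receptor gene. The genes have a single coding exon and lie in clusters of close copies in regions rich in A and T. Their known role is in these neurons, and expression was not measured here.

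In DamID, the bacterial enzyme Dam methylates adenine in the sequence GATC. Fused to lamin B1, a protein of the nuclear lamina, it marks DNA that touches the lamina, while Dam alone marks accessible DNA. The deposited value, OE, is the ratio of observed to expected reads of a bin in a cell, and a bin was counted as in contact where its OE was at least 1. Dam-lamin B1 was mapped in 56 oocytes, 19 zygotes, 47 blastomeres of the 2-cell stage, 41 blastomeres of the 8-cell stage and 10 ES cells. Unfused Dam was mapped in 43 oocytes, 46 zygotes, 45 blastomeres of the 2-cell stage and 4 blastomeres of the 8-cell stage. Dam-lamin B1 was also mapped in 15 paternal and 10 maternal pronuclei taken out of zygotes. It was mapped in zygotes given mRNA for wild-type Kdm5b (14) or mutant Kdm5b (9), in pronuclei after wild-type Kdm5b (19 paternal, 19 maternal) or mutant Kdm5b (6 paternal, 13 maternal), in zygotes given wild-type Kdm4d (12) or mutant Kdm4d (10), and in zygotes treated with aphidicolin (9) or DMSO (11). Kdm5b and Kdm4d are histone H3 lysine demethylases with different target lysines, and aphidicolin stops DNA replication.

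The strain label was C57BL/6 for oocytes and for all isolated pronuclei, and C57BL/6 female x CAST/EiJ male for whole zygotes, 2-cell and 8-cell embryos. Blastocyst samples of inner cell mass and trophectoderm carried the same label as the whole zygotes. The protocol text describes the mothers as F1 (CBAxC57BL/6J). ES cells were labelled 129/Sv female x CAST/EiJ male. The Dam constructs carried an auxin-dependent degron, and the injected mRNA mix also held TIR1 and membrane-EGFP. Dam-lamin B1 mRNA was given at 5 ng/µl to oocytes, zygotes and the Kdm5b groups, at 10 ng/µl for the 2-cell stage and at 20 ng/µl for the 8-cell stage. Dam mRNA was given at 20 ng/µl to oocytes and zygotes and at 40 ng/µl for the 2-cell and 8-cell stages, and Kdm5b mRNA at 2 µg/µl. Stage and construct therefore differ in dose as well. The strain label also changes between oocytes and zygotes and between 8-cell embryos and ES cells. Stage and strain cannot be told apart at these steps. The aphidicolin libraries are labelled zygote, while the protocol text describes aphidicolin treatment of 2-cell embryos, and the labels are followed here. Reads per cell, recovered from the OE values, ran from 23564 to 1091104 with a median of 71774, with a median of 41811 in Dam-lamin B1 zygotes and 94298 in Dam zygotes. Bins with at least 0.5 of the expected reads of the mean bin are called measurable here. A measurable Vmn1r bin held on average 2.72 reads in a Dam-lamin B1 zygote and 3.95 reads in a Dam zygote, so a cell gives a coarse value for a single bin. With no expression in these files, no marker gene could check the labels.

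The promoters of 206 Vmn1r genes were in the RefSeq promoter table of GRCm38.p6, which holds 250 bases before and 50 bases after each gene start. The first 3 below are shown because their bins gave the highest zygotic log2 difference (Vmn1r224), the lowest (Vmn1r85) and the lowest of the chr6c cluster on chromosome 6 (Vmn1r47). They lie at chr17:20418913-20419212 on the plus strand, chr7:13085166-13085465 on the minus strand and chr6:90021638-90021937 on the plus strand. Each is printed 5′ to 3′ with GATC, the letters Dam methylates, in capitals.
Vmn1r224: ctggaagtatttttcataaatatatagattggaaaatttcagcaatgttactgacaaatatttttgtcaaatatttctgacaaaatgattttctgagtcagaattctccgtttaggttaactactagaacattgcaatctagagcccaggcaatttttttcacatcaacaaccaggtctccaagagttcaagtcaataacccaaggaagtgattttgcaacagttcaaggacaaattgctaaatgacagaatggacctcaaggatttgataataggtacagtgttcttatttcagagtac
Vmn1r85: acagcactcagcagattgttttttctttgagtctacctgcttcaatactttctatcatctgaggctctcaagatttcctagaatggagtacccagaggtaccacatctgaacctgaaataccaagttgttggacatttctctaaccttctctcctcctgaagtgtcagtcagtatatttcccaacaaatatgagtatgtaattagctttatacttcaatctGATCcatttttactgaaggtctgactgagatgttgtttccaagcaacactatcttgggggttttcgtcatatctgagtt
Vmn1r47: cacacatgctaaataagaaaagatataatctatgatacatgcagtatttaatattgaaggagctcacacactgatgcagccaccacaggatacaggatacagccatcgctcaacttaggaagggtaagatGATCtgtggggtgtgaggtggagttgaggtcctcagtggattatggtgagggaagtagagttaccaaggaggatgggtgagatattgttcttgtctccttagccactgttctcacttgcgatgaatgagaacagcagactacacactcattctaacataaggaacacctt

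The Vmn1r224 promoter held 0 GATC and the other 2 held 1 each, and the Vmn1r47 promoter was identical to that of Vmn1r48 in the same bin. GATC was present in 44.2% of Vmn1r promoters and in 48.0% of all 27025 promoters. TAATTA, letters that homeodomain factors can bind, was found in 7.28% of Vmn1r promoters and in 5.31% of all promoters. Both patterns read the same on either strand, so 1 search covers both, and a match describes letters and not binding. The median share of G and C was 35.3% in Vmn1r promoters of measurable bins and 36.3% in those of the other bins with values, against 52.7% over all promoters.

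The receptor genes fell into 14 clusters, taken as runs of midpoints no more than 1 Mb apart, and 8 of these had at least 3 bins. On chromosome 6 there were 28 genes in 12 bins at chr6:56900001-58500000 (chr6a), 8 genes in 4 bins at chr6:66500001-66900000 (chr6b) and 15 genes in 6 bins at chr6:89700001-90300000 (chr6c, which holds receptors of the V1ra and V1rb families). On chromosome 7 there were 11 genes in 7 bins at chr7:5100001-6100000 (chr7a), 24 genes in 16 bins at chr7:10200001-13300000 (chr7b) and 86 genes in 36 bins at chr7:20100001-24100000 (chr7c), of which 31 bins had a value. Chromosome 13 held 36 genes in 12 bins at chr13:22000001-23300000, among histone genes and the protease gene Prss16. Chromosome 17 held 14 genes in 8 bins at chr17:20400001-21400000, beside Vmn2r108, Vmn2r109, Vmn2r110 and the formyl peptide receptor gene Fpr-rs3. The remaining genes with values were Vmn1r1 on chromosome 1, Vmn1r2 and Vmn1r3 on chromosome 4, Vmn1r90, Vmn1r184 and Vmn1r185 on chromosome 7, and Vmn1r238 on chromosome 18.

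The largest run of receptor genes could hardly be measured. Of the 31 bins of chr7c with a value, 25 bins with 62 genes at chr7:20100001-23300000 were not measurable. In 14 of them the expected reads were between 0.0222 and 0.331 of those of the mean bin, and the other 11 gave too few reads to find the size of a single read, so their expected reads have no estimate. The chromosome 4 bin with Vmn1r2 and Vmn1r3 stood at 0.331. In all, 26 Vmn1r bins (25.5%) with 64 genes were not measurable, 15 with an estimate below 0.5 and 11 with no estimate. Of all bins 477 (1.99%) were not measurable, 409 with an estimate below 0.5 and 68 with none. These are called bins with few expected reads. The other 76 Vmn1r bins, with 157 genes, are the measurable ones, a limit chosen after the values were seen. The lowest bin kept stood at 0.873 and the highest estimate left out at 0.331. In Dam-lamin B1 zygotes 97.1% of the values in the low bins were 0, against 25.5% of the values in measurable Vmn1r bins.

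The genes in the bins with few expected reads mostly had near-identical copies among the other receptors. Of 61 promoters there, 60 shared at least 1 window of 50 bases with another Vmn1r promoter, 45 were identical to another and 56 (91.8%) were at least 90% identical to their closest relative. Of 138 promoters in measurable bins, 45 shared such a window, 2 were identical to another and 14 (10.1%) were at least 90% identical. The median closest identity was 100% in the bins with few expected reads and 50.0% in measurable bins. Identity was counted position by position without gaps, so copies shifted against each other score low. Vmn1r45 and Vmn1r51, in measurable bins, shared most of their windows with another Vmn1r promoter but were not among the 14. The identity values can therefore understate closeness in measurable bins, while the window counts do not depend on position. GATC was in 19.7% of the promoters in the bins with few expected reads and in 56.5% of those in measurable bins. The promoters of Vmn1r122 and Vmn1r159 show how close the copies are. They lie at chr7:21134079-21134378 and chr7:22843556-22843855, both on the minus strand, and their genes start 1.71 Mb apart. They differ by A67T, counted from the 5′ end with Vmn1r122 first. The differing base and GATC are in capitals.
Vmn1r122: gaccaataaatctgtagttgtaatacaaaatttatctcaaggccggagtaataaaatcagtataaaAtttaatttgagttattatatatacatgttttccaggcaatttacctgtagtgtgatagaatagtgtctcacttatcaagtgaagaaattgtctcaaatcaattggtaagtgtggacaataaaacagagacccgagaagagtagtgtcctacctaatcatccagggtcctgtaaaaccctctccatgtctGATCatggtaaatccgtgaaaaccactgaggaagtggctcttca
Vmn1r159: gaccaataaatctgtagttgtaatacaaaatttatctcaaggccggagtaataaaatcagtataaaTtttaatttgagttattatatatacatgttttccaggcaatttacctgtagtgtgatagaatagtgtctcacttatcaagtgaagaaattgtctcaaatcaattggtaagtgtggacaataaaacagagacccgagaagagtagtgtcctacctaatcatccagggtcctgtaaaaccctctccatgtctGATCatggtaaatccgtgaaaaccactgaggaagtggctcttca

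The sources used here do not say how reads that match several copies were placed, and the part of repeated sequence in the low expected reads was not tested. A low OE in this stretch is therefore not read as absence from the lamina.

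**Figure D1:**
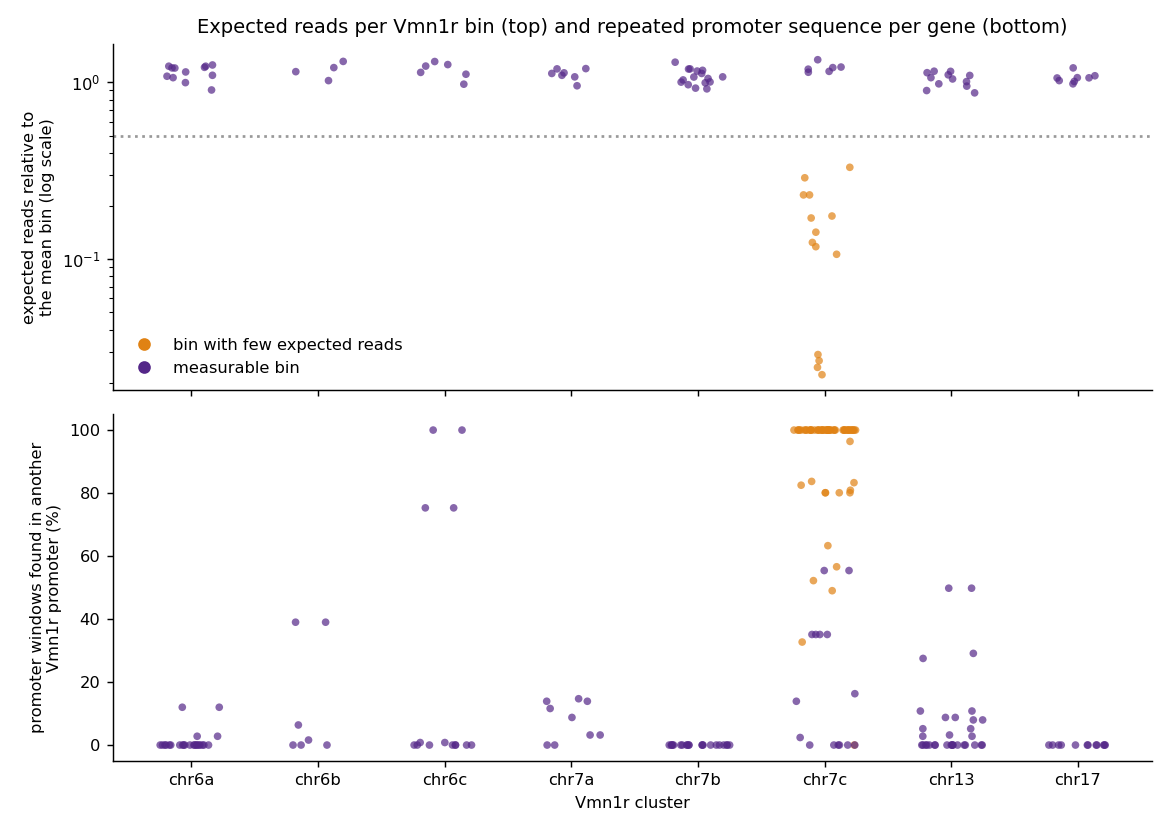
Expected reads per Vmn1r bin relative to the mean bin (top, log scale, 1 point per bin, dotted line at 0.5) and the share of each promoter's 50-base windows found in another Vmn1r promoter (bottom, in percent, 1 point per gene), by cluster. Every bin below the line is in chr7c, where most promoters are at 100%; bins without a read size, and clusters of fewer than 3 bins, are not drawn.

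Lamina-associated domains (LADs) deposited for the inner cell mass (ICM) and the trophectoderm (TE) of blastocysts, with 3 pooled Dam-lamin B1 samples each, covered most of the measurable receptor bins. At least 50% of the bin lay in both LAD lists for 65 of 76 measurable Vmn1r bins (85.5%) and for 66 of all 102 Vmn1r bins (64.7%), against 50.3% of all autosomal bins. The share was 88.8% for bins of Vmn2r genes, the receptors of the basal vomeronasal layer, and 79.9% for bins of Olfr genes, the odorant receptors. Bins of chr6b (4 of 4), chr7a (7 of 7) and chr17 (8 of 8) were in both lists throughout, as were 10 of 12 bins of chr6a, 10 of 12 of chr13, 12 of 16 of chr7b and 4 of 6 of chr6c. The Vmn1r1 bin, which also holds Srp9, a gene of the signal recognition particle, was in neither list. Each list stands for a single set of pooled samples, so these shares have no replicate error.

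Across the stages, the mean OE of the measurable Vmn1r bins with Dam-lamin B1 was 0.900 ± 0.445 in oocytes (SD over cells, n = 56), 1.04 ± 0.178 in zygotes (n = 19), 1.13 ± 0.209 in 2-cell embryos (n = 47), 1.28 ± 0.228 in 8-cell embryos (n = 41) and 1.24 ± 0.221 in ES cells (n = 10). The same bins with unfused Dam averaged 0.896 ± 0.0984 in oocytes, 0.813 ± 0.124 in zygotes, 0.852 ± 0.211 at the 2-cell stage and 0.481 ± 0.0882 in the 4 blastomeres of the 8-cell stage. Over all 102 Vmn1r bins the Dam-lamin B1 means were lower, at 0.780 ± 0.473, 0.797 ± 0.141, 0.910 ± 0.220, 1.16 ± 0.392 and 0.972 ± 0.212 in the same order of stages. Over all 102 bins the Dam means were 0.786 ± 0.128, 0.645 ± 0.130, 0.734 ± 0.261 and 0.408 ± 0.114. With Dam-lamin B1, all autosomal bins averaged 0.885 in oocytes, 1.02 in zygotes, 0.999 in 2-cell embryos and 1.01 in 8-cell embryos. In ES cells they averaged just under 1. Vmn2r bins averaged 0.698 in oocytes and 1.21 in zygotes, and Olfr bins 0.750 and 1.36. The oocyte mean of the measurable Vmn1r bins was therefore not below that of all bins, but the median oocyte was. It stood at 0.747 in measurable Vmn1r bins and at 0.890 in all bins. Over all 102 Vmn1r bins the oocyte mean of 0.780 was also below that of all bins. From oocytes to zygotes the mean went from 0.900 to 1.04 in measurable Vmn1r bins and from 0.885 to 1.02 in all bins. Over all 102 Vmn1r bins it went from 0.780 to 0.797. This step therefore does not set the receptors apart from all bins. The share of the 102 bins with an OE of at least 1 was 25.9%, 30.2%, 34.4%, 40.7% and 43.9% from oocytes to ES cells with Dam-lamin B1. With Dam, where an OE of at least 1 does not mean contact, it was 30.7%, 25.0%, 27.7% and 12.7% from oocytes to 8-cell embryos. The 102 bins include those with few expected reads. No share over all autosomal bins is set beside these, so they do not set the receptors apart. The labels do not name the females, embryos or cultures behind oocytes, blastomeres and ES cells, so each of those groups counts as a single sample and no test was made between stages.

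The clusters did not share a course. The 6 bins of chr6c, with V1ra and V1rb receptors, had a mean OE of 0.356 ± 0.627 in oocytes, 0.352 ± 0.189 in zygotes and 0.327 ± 0.288 in 2-cell embryos, and of 1.15 ± 0.482 in 8-cell embryos and 1.23 ± 0.314 in ES cells (mean ± SD over cells). A mean OE of at least 1 over chr6c was found in 2 of 56 oocytes, 0 of 19 zygotes, 1 of 47 cells of 2-cell embryos, 26 of 41 cells of 8-cell embryos and 9 of 10 ES cells. The 20 neighbouring bins, 10 on each side, averaged 0.604 ± 0.278 in 8-cell embryos, and chr6c was above them in 34 of 41 cells. The bin with Vmn1r47, Vmn1r48 and Vmn1r49 averaged 0.492, 0.466, 0.310, 1.80 and 1.68 from oocytes to ES cells. Vmn1r49, also called V1rb2, is a receptor for the urinary pheromone 2-heptanone.

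The chr17 cluster had its highest mean in zygotes. Its mean OE was 0.704 ± 0.556 in oocytes, 1.60 ± 0.641 in zygotes, 0.750 ± 0.385 in 2-cell embryos, 1.26 ± 0.529 in 8-cell embryos and 1.38 ± 0.451 in ES cells. A mean of at least 1 was reached in 8 of 56 oocytes, 16 of 19 zygotes and 8 of 47 cells of 2-cell embryos. Its neighbouring bins were as high, at 1.58 ± 0.543 in zygotes, and chr17 was above them in 11 of 19 zygotes. The Vmn1r224 bin at chr17:20400001-20500000 was in contact in 2 of 56 oocytes (3.57%), 14 of 19 zygotes (73.7%, exact Clopper-Pearson 95% interval 48.8 to 90.9%), 3 of 47 cells of 2-cell embryos (6.38%), 6 of 41 cells of 8-cell embryos (14.6%) and 5 of 10 ES cells (50.0%). Such intervals cover counting error only.

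The chr7b cluster had its highest mean at the 2-cell stage, with 1.12 ± 1.000 in oocytes, 1.27 ± 0.504 in zygotes, 1.64 ± 0.480 in 2-cell embryos, 1.09 ± 0.332 in 8-cell embryos and 1.20 ± 0.607 in ES cells. In 2-cell embryos 43 of 47 cells had a mean of at least 1 there, and the 12 neighbouring bins with values averaged 1.56 ± 0.589. The oocytes spread widely, from 0.248 to 4.36 with a median of 0.679, and the mean of 1.12 lay above the median. Likewise chr7a ran from 0.209 to 5.98 in oocytes with a median of 0.753, and chr13 ran from 0.0897 to 4.90 with a median of 0.703. With Dam alone, oocytes ran from 0.452 to 1.48 in chr7b. Depth differed as well, with median reads of 47948 in Dam-lamin B1 oocytes and 181962 in Dam oocytes. The part of depth in these ranges was not tested.

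The other clusters had their highest means at the 8-cell stage or in ES cells. In chr6b the means were 1.56, 1.27, 1.94, 2.21 and 1.31 from oocytes to ES cells, the highest of the 8 clusters in oocytes, 2-cell and 8-cell embryos. In chr6a they were 0.498, 0.843, 0.785, 1.23 and 1.20, and its bin with the most receptors, Vmn1r6 to Vmn1r9, averaged 0.346, 0.873, 0.430, 1.30 and 1.94. In chr7a they were 1.19, 1.12, 1.23, 1.72 and 1.32. In the 6 measurable bins of chr7c they were 0.775, 0.872, 1.06, 1.11 and 1.26. In chr13 they were 1.01, 0.984, 1.12, 1.22 and 1.21. SDs over cells in these 5 clusters lay between 0.307 (chr6a, ES cells) and 1.16 (chr7a, oocytes), so most of these steps were smaller than the spread between cells.

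**Figure D2:**
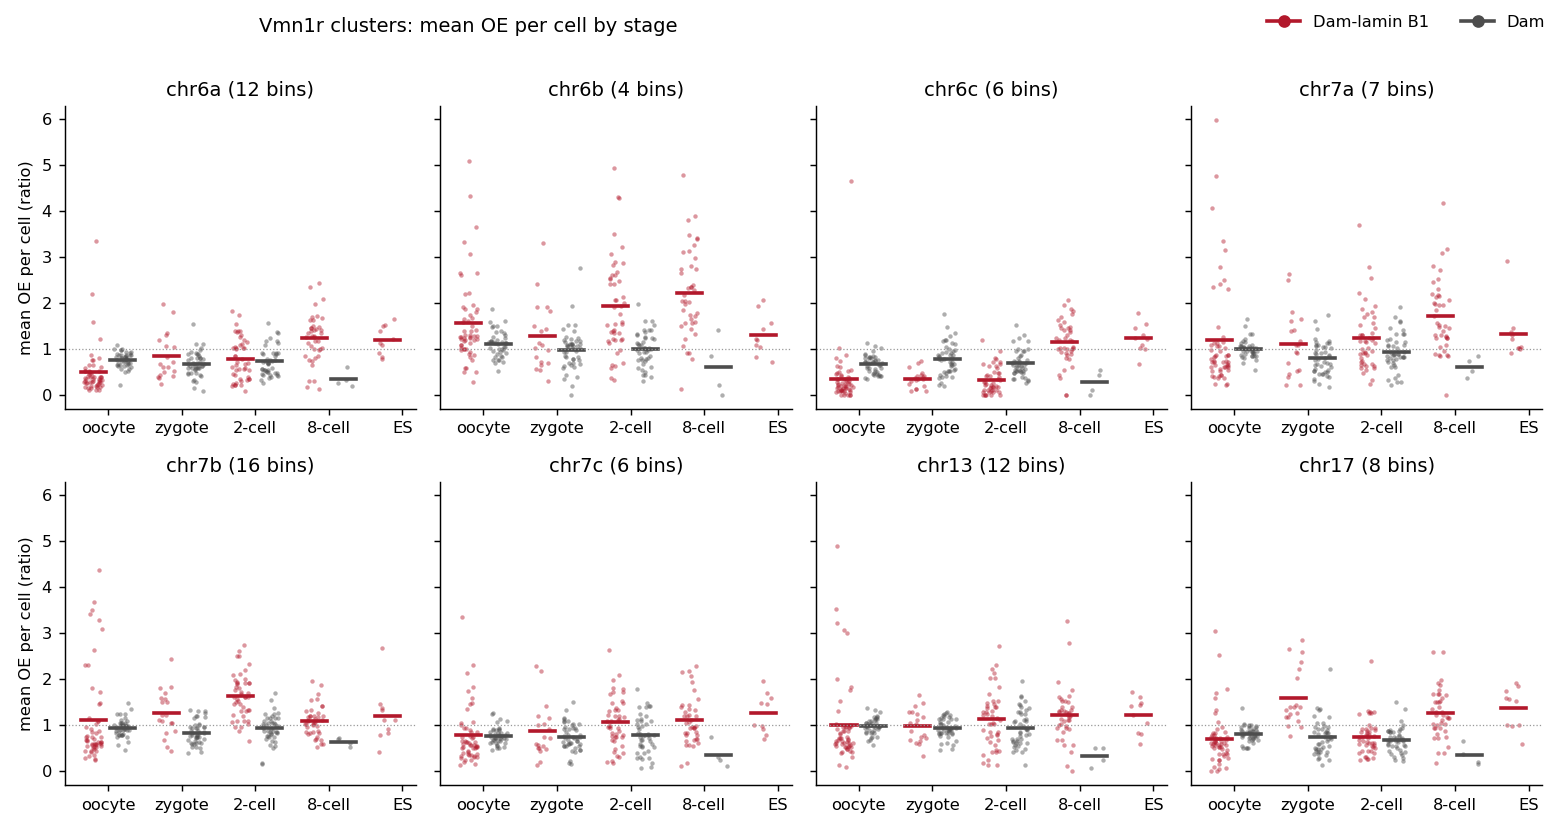
Mean OE per cell over the measurable bins of each Vmn1r cluster (ratio), with Dam-lamin B1 in red beside Dam in grey, by stage; points are cells, bars are group means and the dotted line marks an OE of 1. The chr6c means lie at 0.356, 0.352 and 0.327 up to the 2-cell stage and at 1.15 in 8-cell embryos, while chr17 stands at 1.60 in zygotes.

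Counted by bin, 25 of 76 measurable Vmn1r bins were at least 1.5-fold higher in 8-cell than in 2-cell embryos with Dam-lamin B1 and 12 were at least 1.5-fold lower, against 26.1% higher and 22.7% lower of all bins. Between zygotes and oocytes 22 bins were higher and 10 lower (all bins 34.1% and 21.8%), between 2-cell embryos and zygotes 20 were higher and 14 lower (all bins 26.1% and 31.9%), and between ES cells and 8-cell embryos 11 were higher and 15 lower (all bins 24.7% and 21.2%). Between zygotes and oocytes 56 of 94 Vmn2r bins were higher and 5 lower, and between 2-cell embryos and zygotes 9 of 92 were higher and 45 lower. For Olfr bins the counts were 218 higher and 25 lower of 338, and then 26 higher and 190 lower. Set against Dam in the same stage, Dam-lamin B1 was at least 1.5-fold higher in 3 and lower in 19 of 76 measurable Vmn1r bins in oocytes (all bins 5.29% and 25.8%). In 2-cell embryos 27 were higher and 11 lower (all bins 33.9% and 31.2%). In 8-cell embryos 55 of the 68 bins not listed at 0 were higher and 3 lower (all bins 48.4% and 30.9%), with Dam measured in 4 cells. The other 8 bins had a Dam mean of 0 and gave no fold. A measurable Vmn1r bin held on average 1.09 reads in these Dam cells, and 55.3% of its values were 0. The folds at this stage therefore rest on few reads.

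In zygotes, where each cell is an embryo of its own, Dam-lamin B1 was tested against Dam. The difference went up in chr17, down in chr6c and both ways in chr7b. Of the 102 Vmn1r bins 9 were higher with Dam-lamin B1 than with Dam and 10 were lower, against 22.1% higher and 37.7% lower, 59.8% together, of all 24022 bins (limma on log2(OE + 0.25), Benjamini-Hochberg adjusted p under 0.05 over all bins). All 19 were measurable bins. In chr17 5 of 8 bins were higher and 0 lower, with a median log2 difference of 1.09. In chr6c 0 of 6 were higher and 5 lower, with a median of -0.94. In chr7b 4 of 16 were higher and 2 lower. The other lower bins were Vmn1r21 in chr6a, Vmn1r183 in chr7c and Vmn1r1. No bin of chr6b, chr7a or chr13 was called, and the medians there were 0.20, 0.04 and -0.01.

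Vmn1r224 gave the largest difference. Its OE ran from 0 to 5.49 with a median of 1.78 in Dam-lamin B1 zygotes, against 0 to 2.74 with a median of 0.283 in Dam zygotes. The zygotes with Dam-lamin B1 were mostly above those with Dam, though the groups overlapped. The means were 1.77 ± 1.33 (SD, n = 19) and 0.394 ± 0.519 (n = 46), with a log2 difference of 1.58 (95% interval 0.98 to 2.17, adjusted p = 3.63e-06 in limma), and 16 of 19 Dam-lamin B1 zygotes were above the Dam mean. Next to it, the Vmn1r225 bin had 2.09 ± 1.85 in Dam-lamin B1 zygotes and 0.587 ± 0.609 in Dam zygotes, a log2 difference of 1.21. The Vmn1r226 bin had 2.04 ± 1.64 and 0.677 ± 0.538 in the same 2 groups, a log2 difference of 1.19. The bin with Vmn1r229, Vmn1r230 and Vmn1r231 ran from 0 to 4.86 with a median of 1.82 in Dam-lamin B1 zygotes and from 0 to 3.95 with a median of 0.516 in Dam zygotes, a log2 difference of 1.28. The Vmn1r227 and Vmn1r228 bin between them was higher by 0.99.

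On chromosome 7, the bin with Vmn1r68 and Vmn1r69 ran from 0 to 5.85 with a median of 1.51 in Dam-lamin B1 zygotes, against 0 to 4.76 with a median of 0.553 in Dam zygotes. Its log2 difference was 1.29 (adjusted p = 7.71e-05 in limma), with 18 of 19 Dam-lamin B1 zygotes above the Dam mean. Vmn1r73 had the highest mean of any Vmn1r bin in these zygotes, at 2.36 ± 1.24 in Dam-lamin B1 zygotes and 0.959 ± 0.703 in Dam zygotes, a log2 difference of 1.17. Vmn1r73 was in contact in 15 of 19 Dam-lamin B1 zygotes. The bins of Vmn1r71 (0.96) and of Vmn1r82, Vmn1r83 and Vmn1r84 (0.90) were the other higher bins of chr7b.

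The far end of the same cluster went the other way. Vmn1r85, a receptor for sulfated steroids also called V1rj3, lies in a bin with the genes Zbtb45, Trim28, Chmp2a, Ube2m and Mzf1. Its bin ran from 0 to 2.81 with a median of 0.493 in Dam-lamin B1 zygotes, against 0 to 3.61 with a median of 1.18 in Dam zygotes. The log2 difference was -1.09 (95% interval -1.63 to -0.54, adjusted p = 0.000436 in limma), with 15 of 19 Dam-lamin B1 zygotes below the Dam mean. The neighbouring bin with Vmn1r86, Vmn1r87 and Vmn1r88 had 0.478 ± 0.508 in Dam-lamin B1 zygotes and 1.15 ± 0.928 in Dam zygotes, a log2 difference of -1.01. Both bins lay in the TE LADs and outside the ICM LADs.

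In chr6c the bin with Vmn1r47, Vmn1r48 and Vmn1r49 ran from 0 to 1.86 with a median of 0.260 in Dam-lamin B1 zygotes, against 0 to 3.24 with a median of 1.01 in Dam zygotes, a log2 difference of -1.07 (adjusted p = 0.000995 in limma). The bin with Vmn1r42, Vmn1r43 and Vmn1r44 had 0.152 ± 0.199 in Dam-lamin B1 zygotes and 0.615 ± 0.605 in Dam zygotes, and none of the 19 Dam-lamin B1 zygotes reached an OE of 1 there. The bin with Vmn1r45 and Vmn1r46 was lower by 1.02, that of Vmn1r53 and Vmn1r54 by 0.92 and that of Vmn1r40 and Vmn1r41 by 0.66. Vmn1r1 had 0.494 ± 0.495 in Dam-lamin B1 zygotes and 1.16 ± 0.694 in Dam zygotes, a log2 difference of -1.06. Both measures of chr6c were below those of its neighbouring bins, which averaged 0.769 ± 0.231 in Dam-lamin B1 zygotes and 1.60 ± 0.519 in Dam zygotes.

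The median log2 difference was 0.09 over the measurable Vmn1r bins, 0.53 over Vmn2r bins, 0.62 over Olfr bins and -0.36 over all bins. Among Vmn2r bins 39 of 98 were higher and 3 lower, and among Olfr bins 163 of 338 were higher and 41 lower. Depth moved with the construct, as given above. With every cell thinned to 28431 reads the median over all bins was -0.20, with 4698 bins higher and 4271 lower, and 8 Vmn1r bins were higher and 6 lower. Thinning ended 5 of the 19 calls, those of the Vmn1r40 and Vmn1r41 bin (-0.52, adjusted p = 0.236 in limma), the Vmn1r47 to Vmn1r49 bin (-0.57, 0.216), the Vmn1r86 to Vmn1r88 bin (-0.71, 0.126), Vmn1r183 (-0.70, 0.131) and the Vmn1r227 and Vmn1r228 bin (0.87, 0.0551). This left 3 lower bins in chr6c and 4 higher bins in chr17. Zygotes and pronuclei are taken as replicates. No label ties them to a female or an injection session, so p-values measure the spread between these cells, which may be partly technical.

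**Figure D3:**
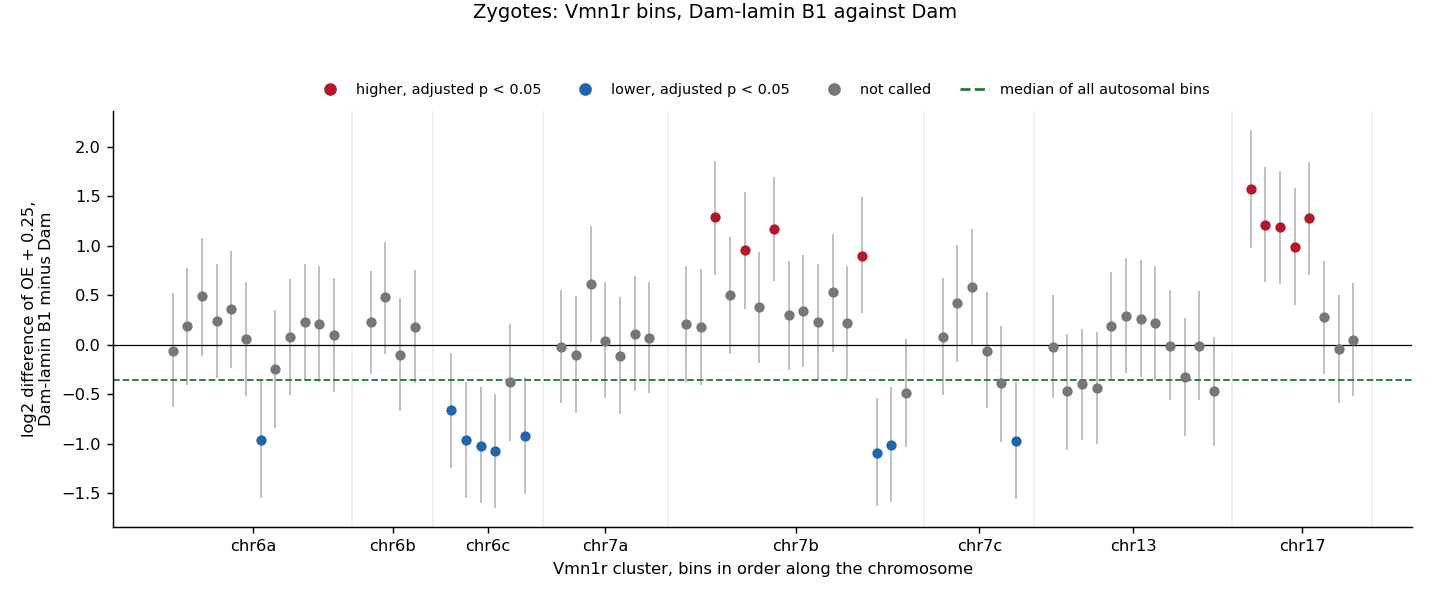
Log2 difference of OE + 0.25 between Dam-lamin B1 and Dam zygotes for each measurable Vmn1r bin of the 8 larger clusters, with 95% intervals, in order along each cluster. Red and blue mark bins higher and lower at an adjusted p under 0.05; chr17 reaches 1.58, chr6c falls to -1.07, and the dashed line is the median of all bins at -0.36.

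A list of other genes of vomeronasal and olfactory neurons, put together here and not limited to V1R neurons, was mostly lower with Dam-lamin B1 than with Dam in zygotes. Of 23 listed genes, 18 lay in a bin that was lower, 1 in a bin that was higher and 4 in bins that were not called, with a median log2 difference of -0.89, against 37.7% of all bins lower and a median of -0.36. The channel gene Trpc2 had 0.816 ± 0.698 in Dam-lamin B1 zygotes and 1.48 ± 0.929 in Dam zygotes (log2 difference -0.79), and Omp, the olfactory marker protein, 1.09 ± 0.759 and 1.96 ± 1.09 (-0.88). The potassium channel gene Kcnn3 fell most, by 1.74 on the log2 scale, and the transcription factor gene Lhx2 by 1.20. Kcnj3, a potassium channel gene, was the higher one (0.95), and Gnai2 was not called (-0.50, adjusted p = 0.0525 in limma). Of the 23 genes, 4 lay in both LAD lists and 15 lay in neither. Among all 24022 bins, 12082 (50.3%) were in both lists and 7688 in neither.

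In isolated pronuclei without Kdm5b, the chromosome 7 clusters had lower means in paternal than in maternal pronuclei. Chr7a averaged 0.620 ± 0.291 in paternal and 1.16 ± 0.938 in maternal pronuclei (SD, n = 15 and n = 10), chr7b 0.650 ± 0.288 and 1.34 ± 0.774, and chr7c 0.630 ± 0.268 and 1.15 ± 0.868. In chr7b 2 of 15 paternal and 5 of 10 maternal pronuclei had a mean of at least 1. Chr6a was on the other side, with 1.43 ± 0.918 in paternal and 0.985 ± 0.933 in maternal pronuclei. Chr6b had 1.27 ± 0.743 and 2.01 ± 0.752, chr6c 0.801 ± 0.498 and 0.528 ± 0.222, chr13 0.858 ± 0.459 and 1.13 ± 0.854, and chr17 1.32 ± 0.711 and 1.23 ± 0.665, paternal before maternal. The parents overlapped in each cluster.

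No Vmn1r bin passed the limma test between paternal and maternal pronuclei, where 1.86% of all bins were higher and 0.283% lower (2.14% together). At an unadjusted p under 0.05 there were 13 Vmn1r bins, 4 higher and 9 lower in paternal pronuclei, against 16.3% of all bins. Counts at an unadjusted p, here and in the comparisons below, are over all Vmn1r bins with values. They include some bins with few expected reads, which show nothing firm. The nearest to the threshold was Vmn1r76 in chr7b, which ran from 0 to 2.55 with a median of 0.442 in paternal pronuclei, against 0.291 to 4.25 with a median of 1.80 in maternal pronuclei. Its log2 difference was -1.53 (95% interval -2.47 to -0.59, adjusted p = 0.0583 in limma), and 14 of 15 paternal pronuclei were below the maternal mean. In chr7b 15 of 16 bins had a log2 difference below 0 and in chr6a 11 of 12 had one above 0, with medians of -0.58 and 0.46, while the median over all bins was 0.19. Median reads were 144981 in paternal and 83407 in maternal pronuclei, and with every pronucleus thinned to 31433 reads 0 bins of any kind passed, with medians of -0.26 over measurable Vmn1r bins and 0.12 over all bins.

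**Figure D4:**
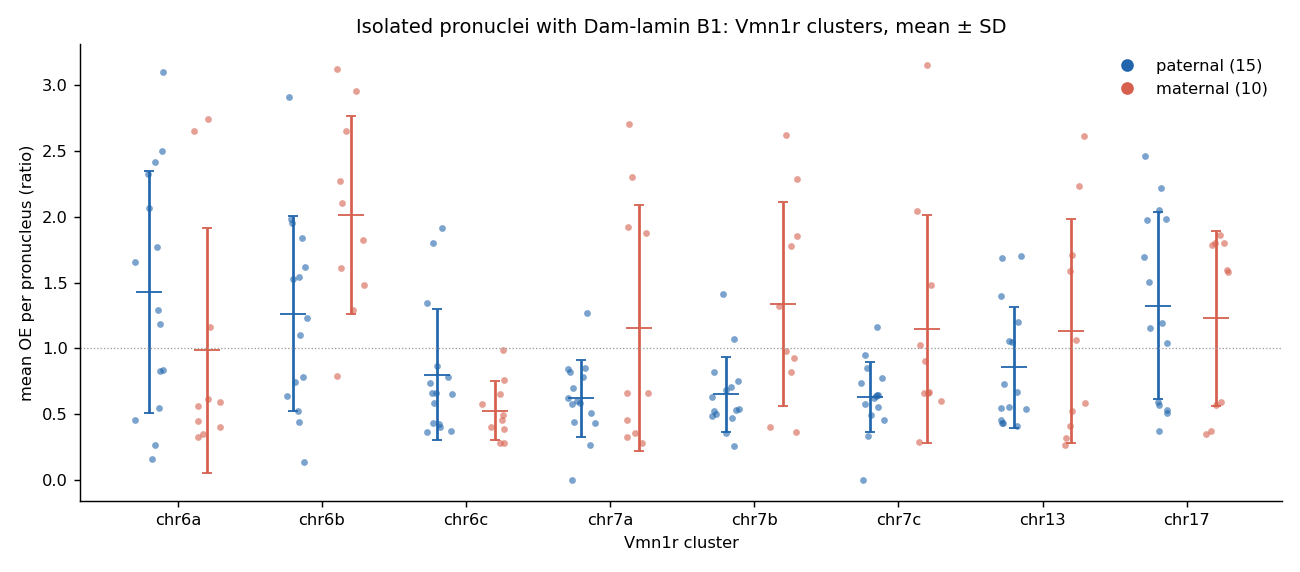
Mean OE per pronucleus (ratio) over the measurable bins of each Vmn1r cluster in paternal (15) and maternal (10) pronuclei with Dam-lamin B1; points are pronuclei, bars the mean ± SD. Paternal pronuclei average 0.650 and maternal pronuclei 1.34 in chr7b, with overlap, and no bin passed the test.

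Wild-type and mutant Kdm5b gave no called Vmn1r bin in any of the 3 comparisons. In whole zygotes the count was 0 in each direction over all 24022 bins as well (limma). At an unadjusted p under 0.05 there were 15 Vmn1r bins, 13 higher and 2 lower with wild-type Kdm5b, against 17.2% of all bins. Vmn1r60 in chr7a came nearest. It ran from 0.504 to 2.60 with a median of 1.49 with wild-type Kdm5b, against 0 to 1.26 with a median of 0.201 with mutant Kdm5b. All 14 zygotes with wild-type Kdm5b were above the mutant mean, the groups overlapped, and the log2 difference was 1.47 (95% interval 0.69 to 2.26, adjusted p = 0.0993 in limma). Chr7b averaged 1.18 ± 0.384 with wild-type and 0.865 ± 0.657 with mutant Kdm5b (SD, n = 14 and n = 9), and chr17 1.15 ± 0.413 and 1.73 ± 0.666. The log2 difference was above 0 in 15 of 16 chr7b bins and below 0 in 8 of 8 chr17 bins.

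Depth again moved with the groups, with median reads of 216237 with wild-type and 85765 with mutant Kdm5b. The median log2 difference was 0.42 over measurable Vmn1r bins and 0.23 over all bins, and centring each cell on its median bin gave 0.17 and -0.02. After centring, 4 Vmn1r bins were higher and 9 lower at an unadjusted p under 0.05. In paternal pronuclei 3 Vmn1r bins, and in maternal pronuclei 5, had an unadjusted p under 0.05, against 14.0% and 9.33% of all bins, and 0.0167% and 0 of all bins passed the limma test. The smallest p in pronuclei was that of Vmn1r238 in maternal pronuclei, 0.199 ± 0.273 with wild-type and 1.42 ± 1.77 with mutant Kdm5b (log2 difference -1.48, adjusted p = 0.272 in limma). The effect of Kdm5b was not found to differ between paternal and maternal pronuclei at any Vmn1r bin, with 0 called in limma (0.00416% of all bins) and 4 bins at an unadjusted p under 0.05 (6.02% of all bins). Those 4 include the Vmn1r2 and Vmn1r3 bin and the Vmn1r118 bin, both with few expected reads. Vmn1r238 had the largest such difference, 2.26 (95% interval 1.03 to 3.48, adjusted p = 0.476).

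Kdm4d and aphidicolin also gave no called Vmn1r bin. Between wild-type and mutant Kdm4d 4 Vmn1r bins had an unadjusted p under 0.05 (3.95% of all bins), and between aphidicolin and DMSO 5 had one (5.56% of all bins). In each of these 2 comparisons 1 of all bins (0.00416%) passed the limma test. With wild-type Kdm4d the chr17 cluster averaged 1.05 ± 0.455, and with mutant Kdm4d 1.59 ± 0.660 (SD, n = 12 and n = 10), with a log2 difference below 0 in 8 of 8 bins. The bin with Vmn1r232 and Vmn1r233 had the lowest of these, -1.23 (95% interval -2.03 to -0.43), with an adjusted p of 1.0 in limma. In chr13, with wild-type 1.11 ± 0.406 and mutant 0.880 ± 0.526, 10 of 12 bins were above 0. With aphidicolin chr7b averaged 1.39 ± 0.616 and with DMSO 1.32 ± 0.505 (n = 9 and n = 11), and chr13 1.41 ± 0.494 and 1.41 ± 0.526. The largest aphidicolin difference was at Vmn1r184, with 0.552 ± 0.514 after aphidicolin and 1.71 ± 1.25 after DMSO (log2 difference -1.37, adjusted p = 0.728 in limma). Failing the threshold does not show that the receptors behaved alike in these groups.

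**Figure D5:**
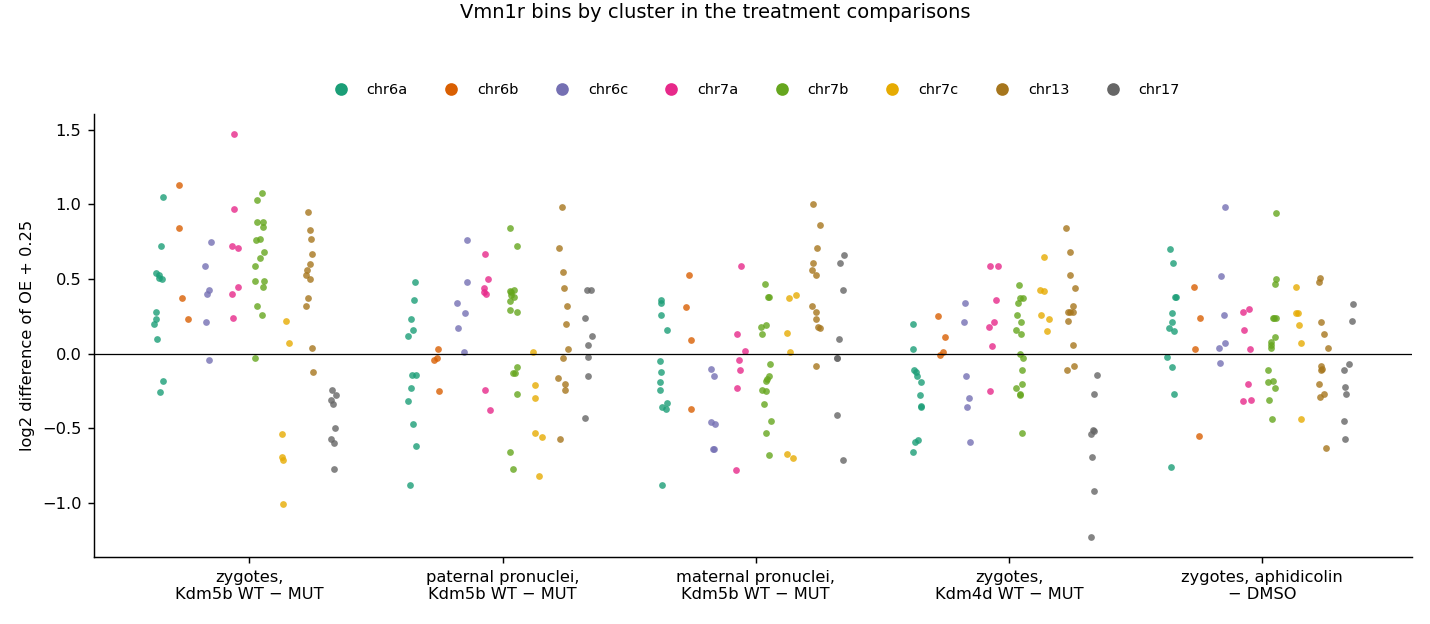
Log2 difference of OE + 0.25 for each measurable Vmn1r bin of the 8 larger clusters in the 5 comparisons of treated zygotes or pronuclei, coloured by cluster; WT is wild-type and MUT mutant. The highest point is Vmn1r60 at 1.47 and the lowest the Vmn1r232 and Vmn1r233 bin at -1.23; no point passed the test at an adjusted p under 0.05.

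Bins of one cluster tended to vary together from cell to cell. Across 56 Dam-lamin B1 oocytes the median Pearson correlation of OE was 0.320 over 338 pairs of measurable bins of the same cluster, 0.234 over 483 pairs of different clusters on the same chromosome and 0.0513 over 2029 pairs on different chromosomes. In 19 Dam-lamin B1 zygotes these were 0.186, -0.000995 and 0.0174, in 2-cell embryos 0.171, 0.0205 and 0.0370, in 8-cell embryos 0.144, 0.0947 and 0.00755, and in ES cells 0.202, 0.124 and -0.0222. With Dam the same-cluster median was 0.114 in oocytes, 0.129 in zygotes, 0.119 in 2-cell embryos and 0.202 in the 4 cells of 8-cell embryos. For different clusters on the same chromosome the Dam medians were 0.0635, 0.0753, 0.104 and 0.0167. For different chromosomes they were 0.0436, 0.0400, 0.0771 and 0.0541. Bins outside the clusters are not set beside these, so the values do not set receptor clusters apart. These values are descriptions: pairs of bins share cells, depth and neighbours, and bins with a few reads each give low correlations.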

How the data were processed

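Single cells from mouse oocytes, embryos, isolated pronuclei and ES cells were mapped by DamID. Reads were trimmed with cutadapt and aligned to mm10 with BWA 0.7.12, per the submitters' processing notes. The deposited values are ratios of observed to expected reads (OE) per 100 kb autosomal bin and cell. How the expected reads were made, and how the LAD lists were called, is not stated in the sources used here. Of 24639 bins, 617 had no value. Of 512 cells, 498 had labels that give a group. The size of 1 read was recovered from the OE steps (tolerance 0.02 of a read; 99.4 to 100% of values came out whole) and gave reads per cell.

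Comparisons used limma 3.58.1 in R 4.3.3 (trend and robust) on log2(OE + 0.25), with p-values adjusted by Benjamini-Hochberg over all 24022 bins. A fold on this scale understates the change of low bins. Oocytes, blastomeres and ES cells have no labelled embryo, animal or culture and were compared by group means with a 1.5-fold limit and no test. A bin was in a LAD where at least 50% of it was covered. Python 3.11.15, numpy 2.4.6, pandas 2.3.3, scipy 1.17.1 and matplotlib 3.10.9 were used otherwise, and the fits were tested on simulated data. Named bins were, for each cluster of at least 3 bins, the bin with the most receptors, then the bins called (the 5 highest and 5 lowest where there were over 10), then the 3 highest and 3 lowest in Dam-lamin B1 zygotes. The 3 lowest lay in the stretch with few expected reads. Other bins, such as those nearest to a threshold, were named after their values were seen. The members and lists were chosen with earlier results of these data known. Alternatives were other pseudocounts, a filter on low bins, array weights, centring, a replicate block, thinned reads and measurable bins only, the last 2 chosen after seeing the data.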

Additional observations from a re-analysis of the deposited data

Results flagged for a closer look

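Cluster means were looked at for cells far from the rest of their group. Of 63 sets of 4 to 10 cells, 8 had one. A rate of about 1 in 20 by chance would hold for independent sets of normally distributed values. These sets share cells and bins, and OE cannot fall below 0, so the count is not read against that rate. In paternal pronuclei with mutant Kdm5b, the pronucleus numbered 1 (42684 reads) had the lowest mean OE of chr6b, 0.577, where the next was 1.28. The same pronucleus had the highest mean OE of chr13, 1.66, with the next at 0.978. ES cell 9 (56098 reads) had the highest mean over all Vmn1r bins, 1.53 with the next at 1.04. Its chr7a mean was 2.90 with the next at 1.45, and its chr7b mean was 2.68 with the next at 1.45. Among zygotes with mutant Kdm4d, cell 4 (42912 reads) had a chr6a mean of 2.99 with the next at 1.44. Cell 1 of that group (32457 reads) had a chr6c mean of 1.94 with the next at 0.834 and a chr17 mean of 3.15 with the next at 2.01.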

How the results depend on the processing

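The count of called Vmn1r bins, both directions together, stayed within 1.5 times its value, or at 0, in all 72 alternatives run. Only the zygote comparison of Dam-lamin B1 with Dam had called Vmn1r bins. In the other comparisons the count stayed at 0, which says little about stability. In that zygote comparison the count ran between 14 and 21. By direction, the lower count was 6 with thinned reads against 10, a move of over 1.5 times, and the higher count 8 against 9. Of 70 recomputed log2 differences of named bins, 68 kept their direction and side of the threshold and 2 lost the call with thinned reads. Over all 19 called bins, 5 lost it with thinned reads (given above), the Vmn1r40 and Vmn1r41 bin also with a pseudocount of 1, array weights and centring (limma adjusted p = 0.0578, 0.116 and 0.0987), and the Vmn1r227 and Vmn1r228 bin also with the replicate block (0.0552). With the replicate block the zygotes gave 8 higher and 11 lower bins and every other comparison gave 0. Same-numbered cells correlated between -0.0892 and 0.143 over 76 pairs, with 3 over 0.1, which gave no sign of pairing. Bins with a few reads each give low correlations, so this check cannot exclude that the numbers pair cells. With measurable bins only, 85.5% of Vmn1r bins were in both LAD lists, and the mean OE was 1.04 in zygotes, 1.13 at the 2-cell stage and 1.24 in ES cells with Dam-lamin B1, and 0.813 in zygotes with Dam. The median over bins was 0.252, 0.326, 0.394 and 0.667 from oocytes to the 8-cell stage with Dam-lamin B1. With Dam it was 0.462 in zygotes, 0.415 at the 2-cell stage and 0 at the 8-cell stage. The share of bins with an OE of at least 2 was 10.8%, 11.9%, 14.8%, 17.6% and 12.4% from oocytes to ES cells with Dam-lamin B1. With Dam it was 3.21%, 4.67%, 7.52% and 4.41% from oocytes to the 8-cell stage. Leaving out each of the 4 Dam blastomeres of the 8-cell stage gave means of 0.362 to 0.454. The cause of these moves was not tested. A measurable Vmn1r bin held 1.09 to 11.2 reads per cell on average, depending on the group, which limits what single bins can show, and the 26 bins with few expected reads show nothing firm.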

Other observations

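Bins that hold Vmn1r pseudogenes but no protein-coding Vmn1r gene stood beside the receptor bins. There were 21 such bins, 17 of them measurable and 14 in both LAD lists. The 17 measurable bins averaged an OE of 0.939 ± 0.379 in oocytes, 1.01 ± 0.211 in zygotes, 0.936 ± 0.251 at the 2-cell stage, 1.27 ± 0.320 at the 8-cell stage and 1.07 ± 0.205 in ES cells with Dam-lamin B1 (SD over cells). With Dam they averaged 0.961 ± 0.126, 0.926 ± 0.199, 1.01 ± 0.249 and 0.697 ± 0.338 from oocytes to the 8-cell stage.

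Oocytes labelled with 20 ng and 50 ng of Dam-lamin B1 averaged 0.728 ± 0.148 (n = 17) and 0.837 ± 0.374 (n = 23) over all Vmn1r bins. Their labels and dose differ from the main oocyte group, and no test was made. For 14 cells the labels contradict each other. The 13 oocytes among them had a mean OE over Vmn1r bins of 0.733 to 1.08 with a median of 0.885, and the cell of an 8-cell embryo had 1.23.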
